A study of Mus musculus with 4 samples.

Results

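Skeletal muscle fibres of fast and slow types build their sarcomeres from different isoforms of the same parts, and the probe sets of 10 such genes were compared between the synaptic and the non-synaptic region of the mouse diaphragm. The genes were chosen by symbol: the myosin light chains Myl1, Mylpf, Myl2 and Myl3, the myosin-binding proteins Mybpc1 and Mybpc2, the alpha-actinins Actn2 and Actn3, and the calsarcins Myoz1 and Myoz2. The platform annotation gave them 15 of the 45101 probe sets, all of which passed the filter on low values that left 26480 probe sets tested. Of the 15, 6 belong to 5 genes known from fast fibres (Myl1, Mylpf, Mybpc2, Actn3, Myoz1), 8 to 4 genes known from slow fibres (Myl2, Myl3, Mybpc1, Myoz2) and 1 to Actn2, which all fibres use.

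RNA came from the left hemi-diaphragm, one side of the sheet of muscle that drives breathing, where the endplates of the phrenic nerve lie in a band across the fibres. The synaptic region and the non-synaptic region were each measured on 2 one-colour arrays, numbered replicate 1 and 2 from their titles. The labels give no strain, sex, age, genotype or treatment, and they do not state whether different animals were used. A p-value here therefore reflects array-to-array spread, which may be purely technical.

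In the sarcomere, each myosin head carries an essential and a regulatory light chain that stiffen its lever arm and tune its force. Myosin-binding protein C lies along the thick filament and adjusts how myosin meets actin. The alpha-actinins cross-link actin at the Z-disc, where calsarcins tie them to the phosphatase calcineurin. The diaphragm is a mixed muscle with fast and slow fibres, so both sets of isoforms are normally present in it.

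The median intensity was 658 and 769 on the synaptic arrays and 704 and 738 on the non-synaptic arrays. The synaptic array of replicate 1 had the lowest median and the highest 3'/5' ratio of the Gapdh controls, which reports on RNA quality, at 1.03 against 0.814 to 0.853 on the other arrays. Arrays sharing a number were more alike than arrays sharing a region, with median absolute log2 differences of 0.204 and 0.158 against 0.351 and 0.298. The 9 skeletal muscle markers, among them Acta1 and Ckm, were all measured, with a median log2 difference of 0.009 between the regions. Among synaptic and non-muscle markers, 4 of 5 measured genes of synaptic muscle nuclei and 8 of 8 measured Schwann cell genes had both synaptic arrays above both others, and 4 of 4 measured fat cell genes had both below.

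Read from the brightest probe sets, the ratio of the myosin-binding protein C pair differed most between the regions, as described further on. The promoters of that pair are therefore printed here. They are taken from RefSeq on GRCm38.p6, each with 250 bases before and 50 after the transcription start, and capitals mark the E-box CANNTG, the letters bound by myogenic basic helix-loop-helix factors. The Mybpc2 window is chr7:44524620-44524919 and the Mybpc1 window is chr10:88605103-88605402, both on the minus strand and written 5′ to 3′.
Mybpc2: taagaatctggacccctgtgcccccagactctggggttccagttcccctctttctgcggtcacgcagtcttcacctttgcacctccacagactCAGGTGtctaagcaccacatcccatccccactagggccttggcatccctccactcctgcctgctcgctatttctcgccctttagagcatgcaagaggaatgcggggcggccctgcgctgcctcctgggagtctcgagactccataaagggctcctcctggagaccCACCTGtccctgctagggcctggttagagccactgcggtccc
Mybpc1: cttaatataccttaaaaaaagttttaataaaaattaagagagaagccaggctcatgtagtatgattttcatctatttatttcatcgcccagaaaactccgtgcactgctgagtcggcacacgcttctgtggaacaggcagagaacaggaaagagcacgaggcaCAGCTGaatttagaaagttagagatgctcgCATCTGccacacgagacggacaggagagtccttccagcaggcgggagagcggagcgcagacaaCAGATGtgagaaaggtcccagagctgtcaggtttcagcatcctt
The fast isoform's window holds 2 matches and the slow isoform's holds 3, searched on both strands. Of the 10 genes, 8 matched the promoter table, in 9 windows, and each window held at least 1 E-box. Among all 32851 promoters of that length 72.3% held an E-box, so such a match is common. TATAAA occurred in 2 of the 9 windows, in those of Myl1 and Myl2, against 13.6% of all promoters. A site of the factor MEF2 was found in the window of Myoz2 alone, and a CArG box in that of Myl3 alone, against 3.19% and 1.63% of all promoters. A match is a run of letters and not evidence of binding.

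The comparison between regions asks whether muscle beneath the synapses carries another set of fast or slow sarcomere transcripts than muscle away from them. No member passed the test: limma called 0 of 15 probe sets at an adjusted p under 0.05, against 0.0113% of all probe sets tested. At an unadjusted limma p under 0.05 there was 1, Mybpc2, against 0.986% of all. The regions stood apart, with both synaptic arrays beyond both others, for 2 of 15 probe sets, against 19.9% of all, so the members were no more often apart than probe sets in general. Both were fast genes, Mybpc2 and Actn3, and both were lower in the synaptic region, an order seen in 9.98% of all probe sets, while 0 of 15 had the opposite order, seen in 9.89%. A log2 difference of 0.25 or more in size was measured for 3 of 15 probe sets, against 27.1% of all. Fewer fibres of a type and less RNA per fibre cannot be told apart in such bulk samples.

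**Figure D1:**
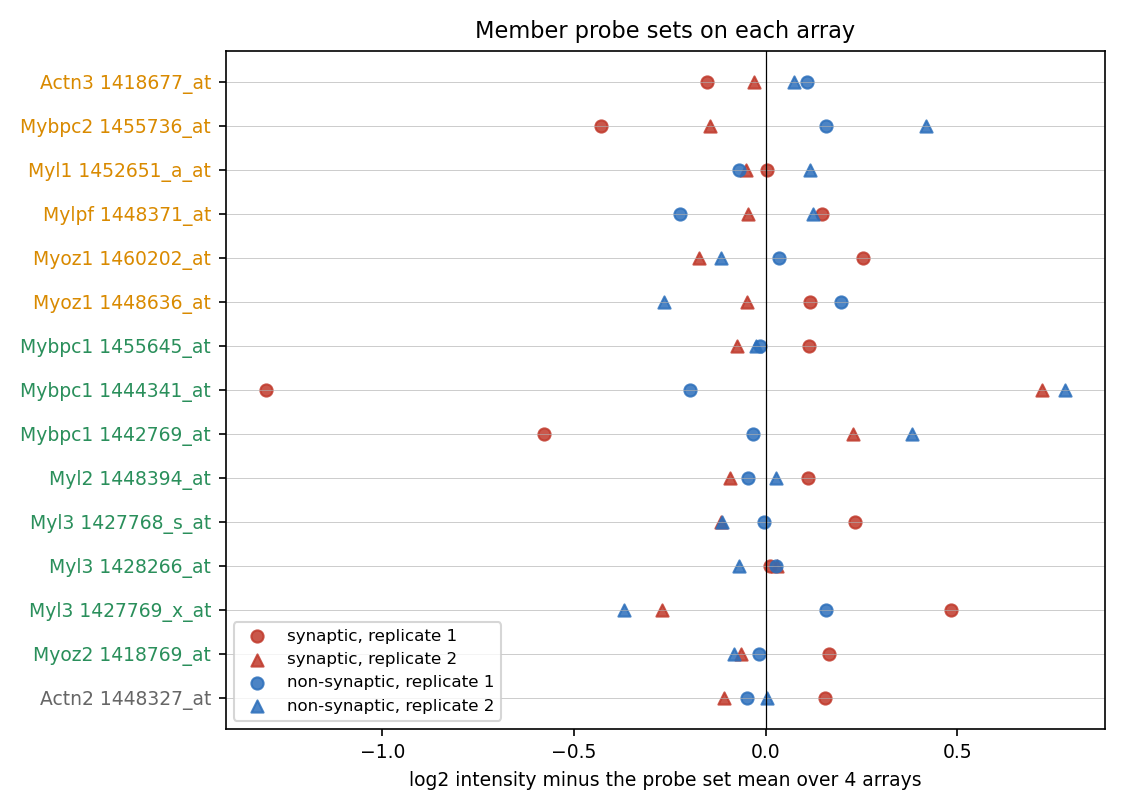
Log2 intensity of each of the 15 probe sets on each of the 4 arrays, less that probe set's mean over the arrays; red marks synaptic and blue non-synaptic arrays, circles replicate 1 and triangles replicate 2. Red and blue separate fully for Mybpc2 and Actn3, and 2 probe sets of Mybpc1 are spread widest.

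Mybpc2, the fast isoform of myosin-binding protein C, had intensities of 22497 and 27422 on the synaptic arrays and 33832 and 40507 on the non-synaptic arrays. Both synaptic values lay below both others. The mean was 24960 ± 3483 (SD, n = 2) over the synaptic arrays and 37170 ± 4719 over the others. The log2 difference was -0.58 ± 0.19 (SE), which is 1.49-fold higher away from the synapses, with a 95% interval of the limma fit from -1.06 to -0.09. Its unadjusted limma p was 0.0273 and its adjusted p 0.9999, so the difference did not pass. The difference ranged from -0.72 to -0.43 when each array was left out in turn. With the regions apart, leaving out 1 array could not change its sign. The same arrays also differed in fat cell and Schwann cell RNA. The 6 fat cell markers that could be read summed to an intensity of 106856 to 112138 in the synaptic and 131194 to 138002 in the non-synaptic region, most of it from Fabp4, a fatty acid carrier, at 111722 and 106280 against 119239 and 118059. Adipoq, the fat cell hormone adiponectin, was at 186 and 189 on the synaptic arrays and at 9045 and 7243 on the others, 43.2-fold higher away from the synapses (limma adjusted p = 0.0326). Neither synaptic array read Ucp1 above the floor, nor Pck1 on its brightest probe set, while another probe set of Pck1 gave 356 and 336 against 644 and 1201. The 9 Schwann cell markers that could be read summed to 107698 to 118998 against 31840 to 34103. Their part in the value of Mybpc2 was not tested.

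Mybpc1, the slow isoform, which fast fibres also contain, was read by 3 probe sets that did not behave alike. The brightest, 1455645_at, gave 147319 and 129329 on the synaptic arrays and 134736 and 133656 on the non-synaptic arrays. These values overlapped, with a log2 difference of 0.04 ± 0.14 and an interval from -0.31 to 0.39. Probe set 1444341_at gave 24257 and 98792 on the synaptic arrays and 52283 and 102971 on the non-synaptic arrays. Both arrays of replicate 1 were thus lower than both of replicate 2, and the lowest by far was the synaptic array of replicate 1. Probe set 1442769_at had the same order of arrays, at 33369 and 58420 in the synaptic and 48767 and 65035 in the non-synaptic region. Their log2 differences were -0.58 ± 0.71 and -0.35 ± 0.31, neither past the test, and the SD between the synaptic arrays was 1.43 and 0.57.

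Within each replicate number the synaptic array was the lower one for both dimmer Mybpc1 probe sets, with the wider gap in replicate 1. Without the synaptic array of replicate 1 the differences were 0.43 and 0.05, which sets the low non-synaptic array of replicate 1 into the comparison without its same-numbered counterpart. Without the synaptic array of replicate 2 they were -1.60 and -0.76. The mean over the 3 probe sets was -0.30, opposite in sign to the brightest alone. The array lowest for both probe sets was the one with the highest Gapdh ratio, 1.03, and the next lowest had the next but lower ratio, 0.853. Whether RNA quality has a part in these values was not tested.

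**Figure D2:**
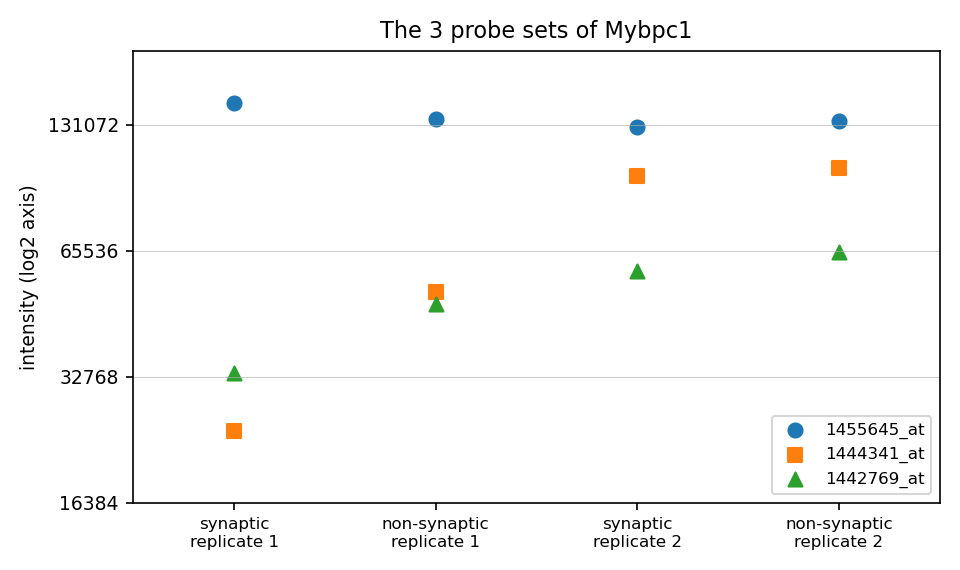
Intensity of the 3 probe sets of Mybpc1 (log2 axis) on the 4 arrays, ordered by replicate number. The brightest stayed between 129329 and 147319, while 1444341_at ran from 24257 to 102971 and 1442769_at from 33369 to 65035.

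The essential light chains did not differ between the regions beyond their spread. Myl1, the fast essential chain, gave 129452 and 124574 on the synaptic arrays and 123097 and 139938 on the others, and the synaptic values lay between those. Its log2 difference was -0.05 ± 0.14, with an interval from -0.40 to 0.31. Myl3, the essential chain of slow fibres and of the heart ventricle, has 3 probe sets. The brightest, 1427768_s_at, gave 99945 and 78471 in the synaptic and 84870 and 78560 in the non-synaptic region, a log2 difference of 0.12 ± 0.17. Its synaptic arrays were the highest and the lowest of the 4.

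The second Myl3 probe set, 1428266_at, was the steadiest of all 3, at 52241 and 52873 in the synaptic and 52801 and 49369 in the non-synaptic region. The third, 1427769_x_at, gave 67805 and 40174 in the synaptic and 54027 and 37508 in the non-synaptic region. There the arrays of replicate 1 lay above those of replicate 2, by 0.64 on the log2 scale. That is larger than its difference between regions of 0.21 ± 0.32. The synaptic array was nevertheless the higher one within each replicate number. A name ending in _x_at marks a probe set with probes that may also match other transcripts. The 3 Myl3 intervals together ran from -0.60 to 1.02.

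The regulatory light chains overlapped as well. Mylpf, the fast regulatory chain, gave 202114 and 176623 on the synaptic arrays and 156196 and 198758 on the non-synaptic arrays. It was the brightest probe set of the array in 3 of the 4 cases, and whether signals this high were limited by the scanner was not tested. Its log2 difference was 0.10 ± 0.17, with an interval from -0.34 to 0.54. Myl2, the regulatory chain of slow fibres and of the heart ventricle, gave 95211 and 82766 in the synaptic and 85497 and 89913 in the non-synaptic region. The synaptic arrays were again the highest and the lowest, and the log2 difference was 0.018 ± 0.15, with an interval from -0.35 to 0.39.

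Of the alpha-actinins, Actn3, which fast fibres carry, was lower on both synaptic arrays. It gave 53509 and 58228 there against 64057 and 62634 in the non-synaptic region, a log2 difference of -0.18 ± 0.14. The interval, from -0.54 to 0.18, includes 0, and the unadjusted limma p was 0.251. Leaving out each array gave from -0.24 to -0.12. As the regions were apart, the sign could not change in this way. Actn2, the isoform of all fibres and the heart, gave 118301 and 98610 in the synaptic and 102708 and 106527 in the non-synaptic region. Those values overlapped, with a log2 difference of 0.05 ± 0.15.

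The calsarcins anchor calcineurin at the Z-disc, and neither differed beyond its spread. Myoz1, the fast calsarcin, gave 84439 and 62790 in the synaptic and 72523 and 65362 in the non-synaptic region on its brighter probe set, a log2 difference of 0.08 ± 0.19. Its dimmer probe set gave 2754 and 2454 against 2910 and 2114, a difference of 0.07 ± 0.25. On both, the arrays of replicate 1 lay above those of replicate 2. Myoz2, the calsarcin of slow fibres and heart, gave 111855 and 95450 in the synaptic and 98617 and 94272 in the non-synaptic region, a difference of 0.10 ± 0.15. Here too replicate 1 lay above replicate 2 in either region.

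**Figure D3:**
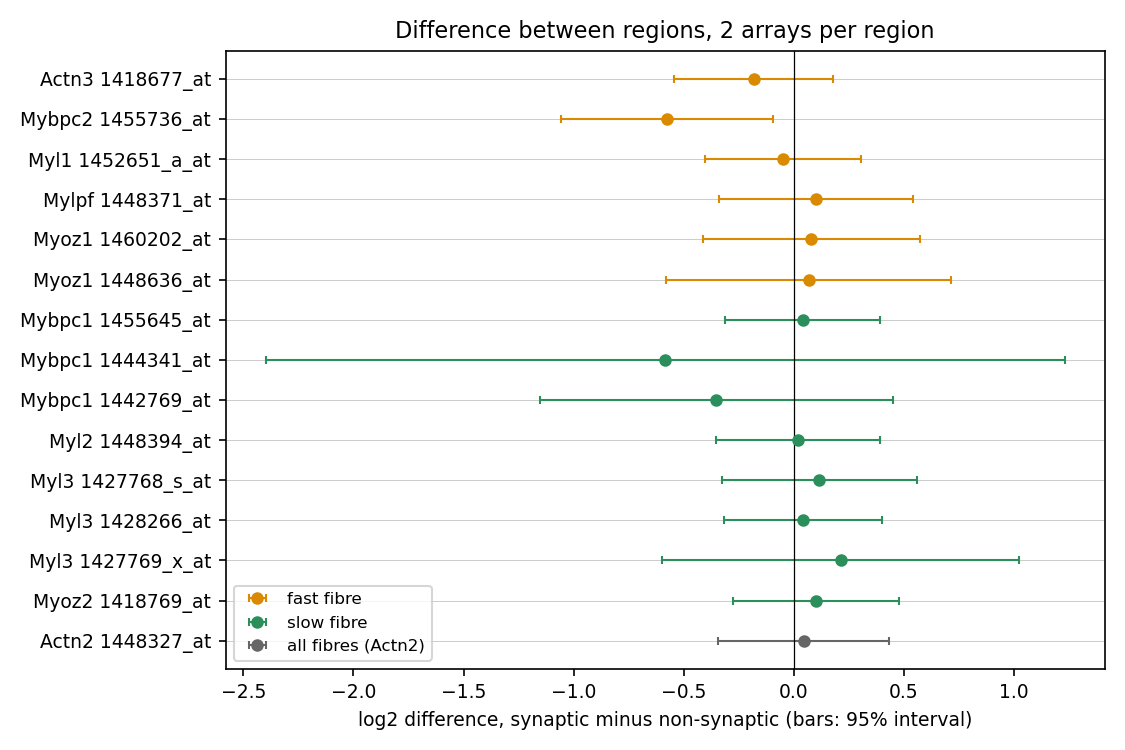
Log2 difference, synaptic minus non-synaptic, for the 15 probe sets with the 95% interval of the limma fit (2 arrays per region). The interval of Mybpc2, from -1.06 to -0.09, is the one that lies wholly below 0 before adjustment, and the other 14 include 0.

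Across the members, arrays differed more by replicate number than by region. For 8 of 15 probe sets both arrays of one number lay beyond both of the other, and for 11 of 15 the difference between numbers was larger than that between regions. Over all probe sets tested the shares were 61.4% and 71.7%, so the members shared this with the rest of the array. Those not set apart by number were Myl1, Mylpf, Myl2, Mybpc2, Actn2, Actn3 and the Myl3 probe set 1428266_at.

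Fast and slow isoforms were compared next, each gene read from its brightest probe set. The median log2 difference was -0.05 for the 5 fast genes, with a range from -0.58 to 0.10, and 0.07 for the 4 slow genes, with a range from 0.018 to 0.12. Over the brightest probe sets of all 12362 genes tested it was 0.0048. Of the fast genes 2 were higher and 3 lower in the synaptic region. All 4 slow genes were higher, each by less than its standard error. Among these, Myl2 turned to -0.018 with quantile normalization and Mybpc1 to -0.30 as the mean over its probe sets. Without the synaptic array of replicate 1 the medians were -0.12 and -0.06, so the slow median changed sign without that array. The slow genes were then at -0.057 for Myl3, -0.015 for Myoz2, -0.053 for Mybpc1 and -0.083 for Myl2. Without the non-synaptic array of replicate 1 the fast median was -0.14, and without that of replicate 2 it was 0.006. The intervals of the 4 slow genes ran together from -0.35 to 0.56, which allows levels from 0.782-fold to 1.47-fold in the synaptic region relative to the other.

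Each fast gene was then set against its partner as a log2 ratio on the same array, for 5 pairs. The ratio of Mybpc2 to Mybpc1 was lower in the synaptic region by 0.62: its centred values were -0.54 and -0.07 on the synaptic arrays and 0.17 and 0.44 on the others. With each gene read from its brightest probe set, this was the single pair whose regions did not overlap. The dimmer Mybpc1 probe sets themselves differed by -0.58 and -0.35, in the direction of Mybpc2. Ratios to those probe sets were not taken. The change was -0.23 for Actn3 to Actn2, -0.16 for Myl1 to Myl3, -0.019 for Myoz1 to Myoz2 and 0.08 for Mylpf to Myl2. With 2 arrays against 2, a two-sided exact permutation test cannot give a p below 0.333. That was its value for the Mybpc2 pair, and the adjusted p over the 5 pairs was 1 for each.

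**Figure D4:**
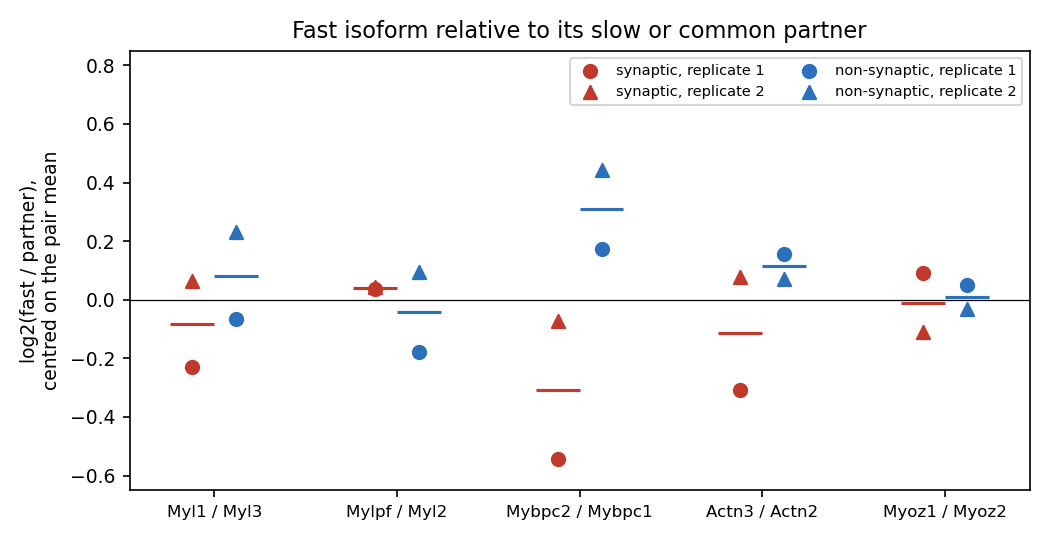
Log2 ratio of each fast isoform to its partner on each array, centred on the pair's mean over the 4 arrays; bars are region means (n = 2). Each gene was read from its brightest probe set. Only in the pair of Mybpc2 and Mybpc1 do all synaptic values, -0.54 and -0.07, lie below both non-synaptic values, 0.17 and 0.44.

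The wider families gave values of the same order. Of 13 genes related to the members, 10 were measured and limma called 0, with 0 at an unadjusted p under 0.05. Their median log2 difference was -0.03. Mybph, a relative of myosin-binding protein C, was at 3898 and 5707 on the synaptic arrays and 5908 and 7491 on the others, a difference of -0.50 ± 0.27. Myoz3, the third calsarcin, was at 2077 and 2645 against 3096 and 3212, a difference of -0.43 ± 0.23, while its dimmer probe set gave 0.31. Both had the regions apart, with the synaptic arrays lower, and neither passed. The remaining light chains of muscle and other cells gave -0.009 for Myl4, the embryonic and atrial chain, 0.05 for Myl6, -0.30 for Myl9 of smooth muscle, 0.14 for Myl12a and 0.09 for Myl12b. The non-muscle actinins Actn1 and Actn4 gave 0.02 and -0.05, and Mybpc3, the heart isoform, -0.24. Myl6b, Myl7 and Mybphl lay below the filter.

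Other genes of the fibre types were read from lists set beside the members. Of 10 other fast genes limma called 0, with 1 at an unadjusted p under 0.05, and their median was 0.05. That 1 was Myh4, which encodes the type IIb myosin heavy chain, at 32001 and 40267 on the synaptic arrays and 85890 and 93886 on the others. Like Mybpc2 it was lower on both synaptic arrays, by more (-1.32 ± 0.18, limma adjusted p = 0.492), while 8 of the 10 had a positive difference. Its dimmer probe set gave -1.60 with overlapping regions. Myh2 gave 0.15, Myh1 0.09, Tpm1 0.10, and the fast troponins Tnni2 and Tnnt3 both 0.03. The dimmer probe sets of Myh1 gave -0.06 and -0.19 and those of Tpm1 from -0.09 to 0.17, all with overlap. The dimmest probe set of Tnni2 had the regions apart instead, at 1221 and 1136 on the synaptic arrays and 3019 and 1523 on the others, a difference of -0.86 with an unadjusted limma p of 0.0709. Of 9 other slow genes limma called 0, with 0 at an unadjusted p under 0.05, and 0 had the regions apart. Their median was -0.004. The slow calcium-binding troponin Tnnc1 gave 0.25 ± 0.31, Tnnt1 0.14, the calcium store protein Casq2 0.26 ± 0.23, Tpm3 -0.11 and Myh7 -0.05, and myoglobin (Mb) -0.004. The dimmer probe sets of Tpm3 gave from -0.61 to 0.23.

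**Figure D5:**
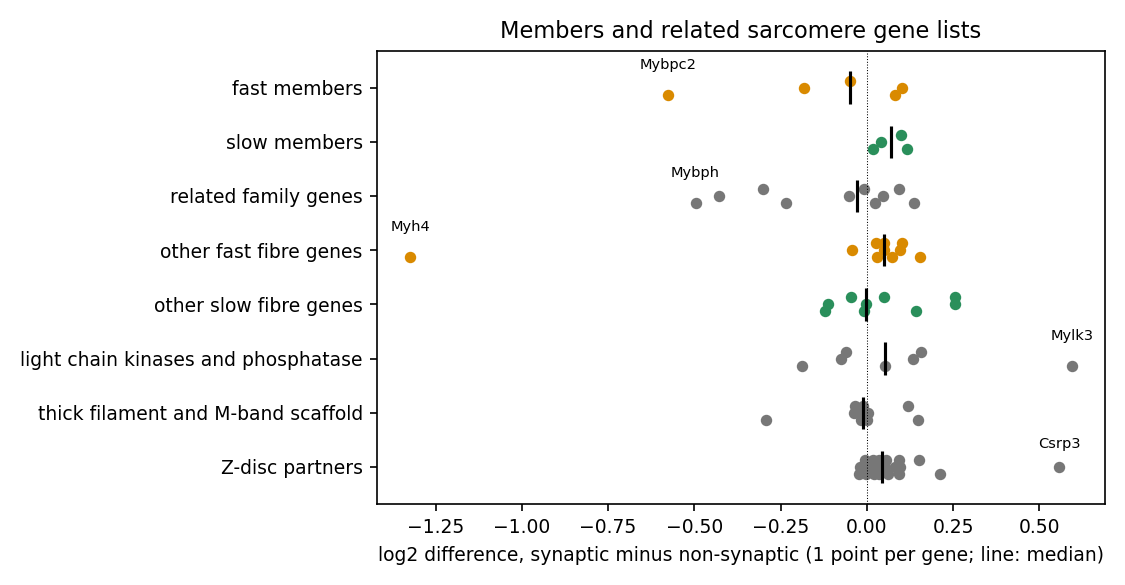
Log2 difference, synaptic minus non-synaptic, of each measured gene in 8 lists of sarcomere genes, with the list median as a line. Most genes lie near 0; Myh4 at -1.32, Mybpc2 at -0.58, Mybph at -0.50, Csrp3 at 0.56 and Mylk3 at 0.59 lie farthest out, and none passed the test.

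Enzymes that set the phosphate on the regulatory light chain did not pass either. Of 7 kinase and phosphatase genes limma called 0, with 0 at an unadjusted p under 0.05 and a median of 0.05. Mylk3, a light chain kinase best known from heart, gave 1468 and 2938 on the synaptic and 1425 and 1329 on the non-synaptic arrays. Its regions were apart, with a difference of 0.59 ± 0.38, but 1 of its synaptic arrays lay close to the others. Mylk gave -0.19 and Mylk4 0.16. The phosphatase subunit Ppp1r12a had the regions apart at -0.08 on its brightest probe set, while its 3 dimmer ones gave from -0.63 to 0.10 and overlapped. Ppp1r12b gave 0.05 and the catalytic subunit Ppp1cb -0.06.

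Of 20 measured Z-disc partners limma called 0, with 0 at an unadjusted p under 0.05. Their median was 0.04, and 16 had a positive difference. Csrp3, a muscle LIM protein of the Z-disc, had the largest, with 32809 and 23246 on the synaptic arrays and 21158 and 16636 on the others. Both synaptic values were above both others, the difference was 0.56 ± 0.24, and with an unadjusted limma p of 0.0671 it did not pass. Capza2, a subunit of the capping protein at the Z-disc, gave 0.15 with the regions apart and -0.25 with overlap on its second probe set. Flnc gave 0.21, Synpo2l 0.10, Tcap 0.08 and Myot 0.03. Of 10 measured genes of the thick filament and M-band scaffold, limma called 0, with 0 at an unadjusted p under 0.05 and a median of -0.01. Smyd1, a methyltransferase that binds myosin, gave -0.29 ± 0.21, Obsl1 0.12, Trim63 0.15, Myom3 -0.04, titin (Ttn) -0.01 and Myom1 0.004. The dimmer probe sets of Smyd1 gave from -0.95 to 0.19.

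Because Myl2, Myl3, Myoz2 and Actn2 are also genes of the heart, markers of heart muscle were read on the same arrays. The 10 markers summed to 19307 and 34142 in the synaptic and 24184 and 33794 in the non-synaptic region, most of it from Actc1, an actin also known from skeletal muscle. Of the 10, 6 were measured and limma called 0, with 0 at an unadjusted p under 0.05 and a median of -0.25. Nppa, Nppb, Myl7 and Tbx5 lay below the filter, and Tbx5, a heart transcription factor, was at the floor on all 4 arrays. Tnnt2, the heart troponin T and also a listed muscle spindle marker, had the smallest p of them. It gave 3802 and 2119 on the synaptic arrays and 2200 and 854 on the others. Those values overlapped, with a difference of 1.05 ± 0.54 and an unadjusted limma p of 0.109, while a dimmer probe set of Tnnt2 was at 0.79. The other 5 were negative, at -0.51 for Tnni3, -0.26 for Ryr2, -0.24 for Mybpc3, -0.19 for Actc1 and -1.13 for Myh6. Myh6, the heart myosin, was at 700 and 382 on the synaptic arrays and at 2994 and 430 on the others, so that 1 non-synaptic array was high.

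Genes with a similar pattern were looked up for the fast and the slow member whose brightest probe set had the smallest unadjusted limma p. The search covered 12362 genes, by Euclidean distance between centred log2 values over 4 arrays. Nearest to Mybpc2 were Ankef1, Zfp677 and Mdm4, at distances of 0.08 each, with log2 differences of -0.64, -0.50 and -0.50. Nearest to Myl3 were Clasp1, Fnta and Vezf1, at 0.010, 0.019 and 0.021, with differences of 0.11, 0.12 and 0.13. None of the 6 passed limma over all probe sets. With 4 arrays and this many genes, such neighbours are a description of shape and nothing more.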

How the data were processed

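RNA of 2 synaptic and 2 non-synaptic arrays was compared. The authors deposited 1 intensity per probe set on a linear scale, and how values were summarised and scaled is not given in the sources used here. Every array's 2% trimmed mean was 2500, and this scaling was kept. Intensities were raised to a floor of 159 (the 20th percentile) and log2 was taken. Probe sets with a mean log2 below 8.87 (the 40th percentile of all values) and 64 control probe sets were left out. Differences between regions were fitted by limma 3.58.1 under R 4.3.3 (lmFit, eBayes with an intensity trend, two-sided), with Benjamini-Hochberg adjustment over 26480 probe sets and a threshold of 0.05. SE and 95% intervals are those of the moderated fit. The procedure was run on simulated data with noise independent between arrays. In the real data, deviations of same-numbered arrays from their region means correlated at 0.634 over probe sets. The simulation therefore does not check p-values or intervals under such sharing. Genes were named by the platform annotation, updated through RefSeq gene tables of GRCm38.p6 (34754 of 34958 probe sets with 1 gene), and each gene was read from its brightest probe set unless stated. All members and related family genes are named, and of each other sarcomere list up to 4 genes with the smallest p and 2 with the highest mean. From the lists of other cell types, genes are named in the text only where they bear on a member. The members and lists were chosen with earlier results of these data known. The number of arrays and, for weak transcripts, signal near the floor limit the precision.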

Additional observations from a re-analysis of the deposited data

How the results depend on the processing

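All alternatives were planned. In none of the 15 with a test was a member called, and the lowest adjusted limma p of a member was 0.120, for Mybpc2 with the replicate number as a block. The differences of Mybpc2 and Actn3 kept their sign in every alternative. Those of the other 13 member probe sets changed sign in at least 1. Mybpc2 and Actn3 were the probe sets with both synaptic arrays below both others, so leaving out 1 array could not reverse them. Alternatives that changed only the filter, the floor or the test left each difference as it was. The cause of the sign changes was not tested. Over all probe sets, 1 higher and 2 lower calls became 6 higher with each array centred on its median and 6 higher at a threshold of 0.10, 3 higher with the filter at the 60th percentile, and 0 higher and 0 lower under any of a floor at the 40th percentile, no filter, no intensity trend and an unmoderated test. With the replicate block they became 56 higher and 18 lower. In that fit 3 member probe sets had an unadjusted limma p under 0.05. Mybpc2, at -0.58 as before, had an SE of 0.11 and an unadjusted limma p of 4.4e-04 (adjusted 0.120). The dimmer Mybpc1 probe sets, at -0.58 and -0.35 as before, had unadjusted limma p of 0.0198 and 0.0268 (adjusted 0.690 and 0.722). The labels do not say that the number pairs the arrays; deviations of same-numbered arrays from their region means correlated at 0.634 over probe sets. With one array dropped at a time, 0 to 6 were higher and 0 to 5 lower, with a fast median from -0.14 to 0.0058 and a slow one from -0.055 to 0.17. Myl2 changed to -0.018 with quantile normalization, and Mybpc1 to -0.30 as the mean over its probe sets. Leaving out each array gave from -0.085 to 0.18 for Actn2, -0.14 to 0.045 for Myl1, -0.073 to 0.27 for Mylpf, -0.083 to 0.12 for Myl2, -0.015 to 0.21 for Myoz2, and -0.13 to 0.29 and -0.16 to 0.30 for the probe sets of Myoz1. It gave -0.057 to 0.29, -0.0067 to 0.090 and -0.16 to 0.59 for those of Myl3, and -0.053 to 0.13, -1.60 to 0.43 and -0.76 to 0.053 for those of Mybpc1.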
